A study of Mus musculus with 6 samples.

Results

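The N-glycan, O-glycan and sialic acid transferases are the Golgi and endoplasmic reticulum enzymes that build the sugar chains of glycoproteins and glycolipids. Members were taken by gene symbol, from the families Alg, Mgat, B4galt, B4galnt, B3gnt, B3galt, B3galnt, Galnt, Gcnt, St3gal, St6gal, St6galnac and St8sia. The rule used no measured value and found 93 genes among 22105 features with a gene identifier. Their RNA was measured by mRNA sequencing in 4T1 cells, an established line from a mouse mammary carcinoma. The tested cells were given CM-PEG-PLGA@DOX/R848 nanoparticles for 24 h at a dose equal to 2 µg/mL of DOX (3 libraries), and the control cells were given phosphate-buffered saline (PBS) for the same time (3 libraries). DOX is doxorubicin, an anthracycline that poisons topoisomerase II, and R848 is resiquimod, an agonist of Toll-like receptors for RNA. Cells given an unloaded particle or either drug alone were not analysed here, so the parts of the particle cannot be told apart. The labels do not say whether the 3 samples of a group were separate cultures, and the p-values rest on the spread among them, which may be only technical.

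N-glycans start as a lipid-linked precursor that the Alg enzymes assemble sugar by sugar on dolichol in the endoplasmic reticulum. The finished precursor is moved onto asparagine, trimmed, and then branched in the Golgi by the Mgat enzymes, while mucin-type O-glycans start in the Golgi when a Galnt enzyme adds N-acetylgalactosamine (GalNAc) to serine or threonine. Both kinds of chain are lengthened with galactose and N-acetylglucosamine (GlcNAc) by the B4gal, B3gal, B3gnt and Gcnt families and are often capped with sialic acid by the St families. In carcinoma cells the chains made by these enzymes include known ligands of galectins and, where sialylated, of Siglecs.

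Levels are given in FPKM, a level corrected for transcript length and for the fragments mapped in each library. The depth of the libraries is unknown, so no counting interval can be given. Genes at 1 FPKM or more numbered 10596 to 10631 per library, but 18319 to 18509 genes were above 0 in the nanoparticle libraries, against 13544 to 13808 in the PBS libraries. Within a group the libraries correlated with Pearson's r of 0.9956 to 0.9969 on the log2(FPKM + 1) scale, and between groups with 0.8617 to 0.8649. Of 10 epithelial and 4T1 markers, Krt8 and Krt18 carried most of the summed level of 1128 to 1169 FPKM in nanoparticle libraries and 825 to 838 FPKM in PBS libraries, while Epcam, Krt14 and Cldn7 stayed under 1 FPKM in every library. Against this sum, Cldn3 was lower, at 16.4 to 17.9 FPKM in nanoparticle libraries and 23.5 to 26.1 FPKM in PBS libraries, and Cldn4 slightly lower. The 12 myeloid markers summed to 44.4 to 49.9 FPKM in nanoparticle libraries and 23.5 to 27.1 FPKM in PBS libraries, with 8 of them under 1 FPKM everywhere and Ptprc, Adgre1 and Fcgr3 at 0 in all PBS libraries. Cd68 and Cd14 carried most of this sum and went opposite ways. Cd68 had 33.5 to 36.3 FPKM in nanoparticle libraries and 10.6 to 14.1 FPKM in PBS libraries, and Cd14 5.88 to 7.98 FPKM and 11.1 to 12.3 FPKM. Csf1r and Mpeg1, both low, were higher after nanoparticles. The 10 lymphocyte markers summed to 1.13 to 1.18 FPKM in nanoparticle libraries and 0.104 to 0.262 FPKM in PBS libraries, and all were under 1 FPKM. The 7 fibroblast markers summed to 7.69 to 9.49 FPKM in nanoparticle libraries and 32.7 to 33.0 FPKM in PBS libraries, almost all of it Pdgfra and Pdgfrb, while the 6 endothelial markers summed to 2.39 to 2.65 FPKM in nanoparticle libraries and 8.36 to 8.61 FPKM in PBS libraries, most of it Cdh5. The part of these shifts in the results that follow was not tested, and in bulk RNA fewer cells of a type and less RNA per cell cannot be told apart.

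Most transferases that could be tested were lower after nanoparticles. Of the 93 genes, 53 reached 1 FPKM in at least 3 of the 6 libraries and entered a limma fit on log2(FPKM + 1) across all 10863 genes that did so. Of these 53, 36 fell, 11 rose and 6 did not pass (adjusted p under 0.05, two-sided, Benjamini-Hochberg over all tested genes). Among all tested genes 46% fell and 40.5% rose, or 86.4% in either direction, so that passing the test was common in these libraries, while 67.9% of the tested transferases fell and 20.8% rose. The median log2 fold change (nanoparticle minus PBS) was -0.40 over the tested transferases and -0.06 over all tested genes. Fold changes on this scale understate the change of genes with low FPKM. Values from a second fit, in which the trend of each library on genomic span and exonic length was removed first, are named as such where they change a call.

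The larger changes were nearly all decreases. With a log2(FPKM + 1) change of at least 1 in size, 12 transferases were lower, or 22.6% of those tested, beside 13.5% of all tested genes, and none was higher, beside 10.2% of all tested genes. By the ratio of mean FPKM, with no pseudocount, 15 transferases were at least 2-fold lower (28.3%), beside 1953 of the 10863 tested genes, the added genes being St3gal6 (0.428), Galnt15 (0.468) and Alg6 (0.475). By that ratio Gcnt2 was at least 2-fold higher (2.03), 1 of the 53 (1.89%), beside 12.5% of all tested genes. The 12 on the log2 scale were St3gal3, St6gal1, Mgat5, St3gal5, Mgat3, Galnt7, Galnt11, B4galnt1, Galnt12, Galnt2, B3galnt2 and Alg9. The nanoparticle and PBS libraries did not overlap for 49 of the 53, or 92.5%, and for 87.2% of all tested genes. One gene, B3gnt9, was under 1 FPKM in every nanoparticle library and entered the test only through the PBS libraries, so its direction was set by the filter. It is included in the count of transferases that fell.

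**Figure D1:**
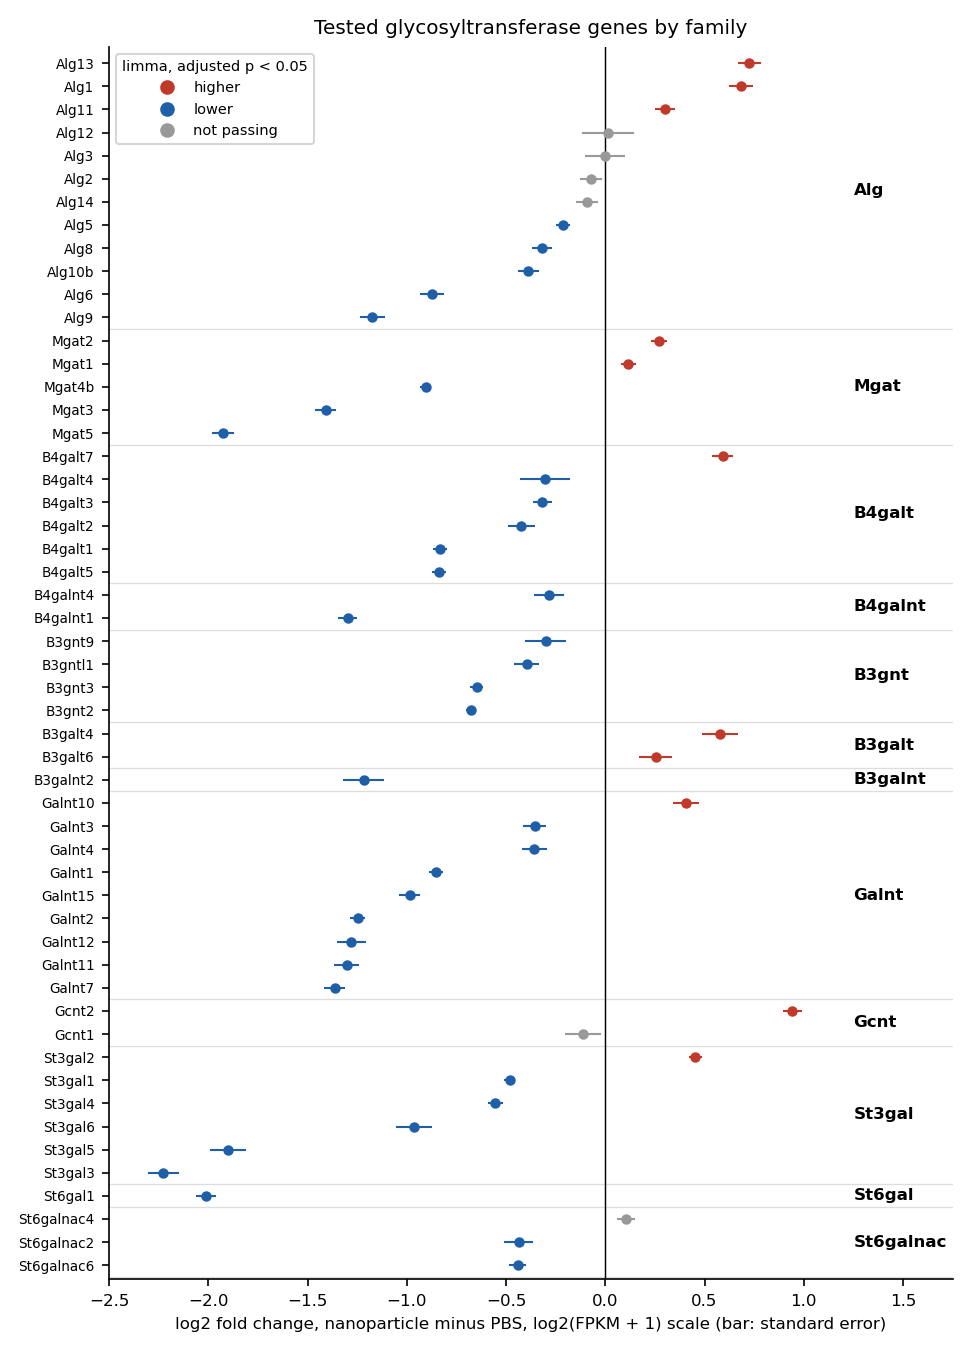
Log2 fold change (nanoparticle minus PBS, log2(FPKM + 1) scale) of the 53 tested transferase genes on the x axis, grouped by family down the y axis, with the standard error as a bar. Red points rose, blue points fell and grey points did not pass limma's test at an adjusted p of 0.05; St3gal3 (-2.23), St6gal1 (-2.01) and Mgat5 (-1.93) lie farthest to the left, and Gcnt2 (0.94) farthest to the right.

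The Alg family, which builds the lipid-linked precursor, was split by direction. All 12 of its genes were tested: 3 rose, 5 fell and 4 did not pass, with a median log2 fold change of -0.08 (7 fell after rescaling to TPM or with the span trend removed). Alg5, which makes the dolichyl-phosphate glucose used by the glucosyltransferases, had the highest level of the family. It was at 17.9, 17.9 and 18.7 FPKM in the nanoparticle libraries, against 21.5, 21.1 and 21.0 FPKM in the PBS libraries. The groups did not overlap, and the change was small (log2 fold change -0.21, SE 0.036, limma adjusted p = 0.000351). Alg13, the catalytic subunit that adds the second GlcNAc, had 7.62, 8.50 and 8.10 FPKM in nanoparticle libraries, against 4.33, 4.67 and 4.44 FPKM in PBS libraries. Every nanoparticle library lay above every PBS library, and Alg13 rose by 0.73 (SE 0.057, limma adjusted p = 1.13e-06). Its membrane partner Alg14, which anchors it to the endoplasmic reticulum, averaged 4.23 ± 0.173 FPKM after nanoparticles and 4.57 ± 0.138 FPKM after PBS (SD, n = 3 each) and did not pass (log2 fold change -0.09). Alg14 passed as higher with the span trend removed (0.39, limma adjusted p = 0.000134) and as lower after rescaling to TPM (-0.24, limma adjusted p = 0.00540).

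The mannosyltransferases of the precursor went both ways. Alg1, which adds the first mannose, rose to 15.2 ± 0.811 FPKM after nanoparticles, against 9.08 ± 0.656 FPKM after PBS (SD, n = 3 each; log2 fold change 0.68). Its exons share 17.6% of their length with Eef2kmt on the opposite strand, which fell (3.71 FPKM after nanoparticles and 12.4 FPKM after PBS), and it is not stated whether the counting used strand. Alg11, which adds later mannoses on the cytosolic face, rose by 0.30 and no longer passed with the span trend removed. Alg9, which adds mannoses on the luminal face, had 2.95, 3.19 and 2.77 FPKM in nanoparticle libraries, against 8.20, 8.17 and 7.51 FPKM in PBS libraries. These groups were far apart, and Alg9 had the largest decrease of the family (log2 fold change -1.18, SE 0.063, limma adjusted p = 6.65e-08). Alg9 shares 12.9% of its exonic length with Cfap68 on the opposite strand, which did not pass (3.95 FPKM after nanoparticles and 5.03 FPKM after PBS). The luminal mannosyltransferases Alg3 and Alg12 (log2 fold changes -0.00 and 0.01) and the cytosolic Alg2 (-0.07) did not pass. With the span trend removed Alg2 (-0.34, adjusted p = 0.000217, limma) and Alg3 (-0.34, adjusted p = 0.0112) passed as lower, and Alg2 also did after rescaling to TPM (-0.22, adjusted p = 0.00470).

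The 3 glucosyltransferases that finish the precursor all fell. Alg6, which adds the first glucose, averaged 3.09 ± 0.159 FPKM after nanoparticles and 6.49 ± 0.299 FPKM after PBS (SD, n = 3 each; log2 fold change -0.87). Alg8 and Alg10b, which add the other glucoses, changed less, with log2 fold changes of -0.32 and -0.39.

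The promoters of Alg12 and Alg13 are shown because each holds a stress-linked motif that is rare among promoters, while the genes differ in response: Alg13 rose and Alg12 did not pass. The windows are RefSeq's for build GRCm38.p6, from 250 bases before to 50 after the annotated start, and 70 of the 93 genes have at least 1 such window. Capitals mark, in Alg12 (chr15:88819269-88819568, minus strand), the endoplasmic reticulum stress element, a CCAAT and a CCACG set apart by a fixed gap, whose first base is at -220, and in Alg13 (chrX:144317716-144318015, plus strand), the cAMP response element TGACGTCA, whose first base is at 31 (the start is base 1, and the base before it -1).
Alg12: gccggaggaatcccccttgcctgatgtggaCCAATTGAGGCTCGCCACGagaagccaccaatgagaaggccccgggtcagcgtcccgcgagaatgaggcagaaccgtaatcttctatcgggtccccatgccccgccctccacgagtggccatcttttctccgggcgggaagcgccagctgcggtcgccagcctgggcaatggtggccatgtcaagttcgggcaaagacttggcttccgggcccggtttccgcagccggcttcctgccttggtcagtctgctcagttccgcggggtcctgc
Alg13: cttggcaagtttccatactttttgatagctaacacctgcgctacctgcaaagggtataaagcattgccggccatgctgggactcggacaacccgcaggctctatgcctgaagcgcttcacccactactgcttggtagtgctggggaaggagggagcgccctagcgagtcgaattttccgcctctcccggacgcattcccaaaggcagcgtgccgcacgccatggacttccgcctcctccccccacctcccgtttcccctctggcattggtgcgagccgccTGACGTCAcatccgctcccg
Searched on both strands, the stress element was found in 1 of the 49 promoters of tested transferases and in 0.119% of all 32851 promoters, and the cAMP response element in 3 of 49 (6.12%) and in 1.79% of all promoters. The UPRE core TGACGTGG was found in 0 of the 49 and in 0.676% of all promoters. The 49 promoters belong to 39 of the tested transferases, so some genes count more than once and others not at all. The 32851 promoters include those of untested genes. A match is a string of letters and is no evidence of binding.

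The Mgat family, which sets the number of antennae on N-glycans, was split by step. The first branching steps were slightly higher and the later ones lower: of 11 genes, 5 were tested, 2 rose and 3 fell (median log2 fold change -0.91). Mgat1, which starts hybrid and complex chains, averaged 16.9 ± 0.574 FPKM after nanoparticles and 15.5 ± 0.108 FPKM after PBS (SD, n = 3 each; log2 fold change 0.12, limma adjusted p = 0.0196). This small rise ended without nanoparticle library 2 (adjusted p = 0.0688) or PBS library 3 (adjusted p = 0.0541), and the value was -0.029 after rescaling to TPM and -0.020 with the span trend removed. Mgat2, which starts the second antenna, had 43.0, 47.0 and 47.1 FPKM in nanoparticle libraries, against 37.5, 37.4 and 38.2 FPKM in PBS libraries. The nanoparticle libraries were all higher, by 0.27 on the log2 scale (SE 0.039, limma adjusted p = 0.000117), but with the span trend removed the value was -0.056 and did not pass.

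The 3 genes that add further GlcNAc fell. Mgat4b, which makes a further antenna and has the highest level of the family, had 65.9, 67.0 and 64.8 FPKM in nanoparticle libraries, against 123, 123 and 127 FPKM in PBS libraries. The groups were far apart, with little spread inside either (log2 fold change -0.91, SE 0.027, limma adjusted p = 1.23e-09). Mgat3, which adds the bisecting GlcNAc that stops further branching, had 7.41, 8.34 and 8.49 FPKM in nanoparticle libraries, against 23.2, 22.7 and 23.4 FPKM in PBS libraries (log2 fold change -1.41, limma adjusted p = 5.67e-09). Mgat5, on chromosome 1 from 127205015 to 127488336 (GRCm38, plus strand, 283 kb), makes the branch that carries long polylactosamine chains, the preferred ligand of galectin-3. It had 1.90, 2.02 and 2.01 FPKM in nanoparticle libraries, against 10.7, 9.88 and 10.3 FPKM in PBS libraries. All nanoparticle libraries were low and close together, and Mgat5 fell by 1.93 (SE 0.056, limma adjusted p = 1.05e-09).

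The decreases within the Mgat family were unequal. The ratio of Mgat3 to Mgat5 was 3.90, 4.14 and 4.23 in nanoparticle libraries, against 2.16, 2.30 and 2.26 in PBS libraries. The ratio of Mgat2 to Mgat4b was 0.653, 0.702 and 0.727 in nanoparticle libraries, against 0.304, 0.305 and 0.301 in PBS libraries. Neither ratio overlapped between groups. Mgat4b made up 47.3% of the summed Mgat FPKM after nanoparticles and 58.7% after PBS, and Mgat2 made up 32.8% after nanoparticles and 17.8% after PBS.

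**Figure D2:**
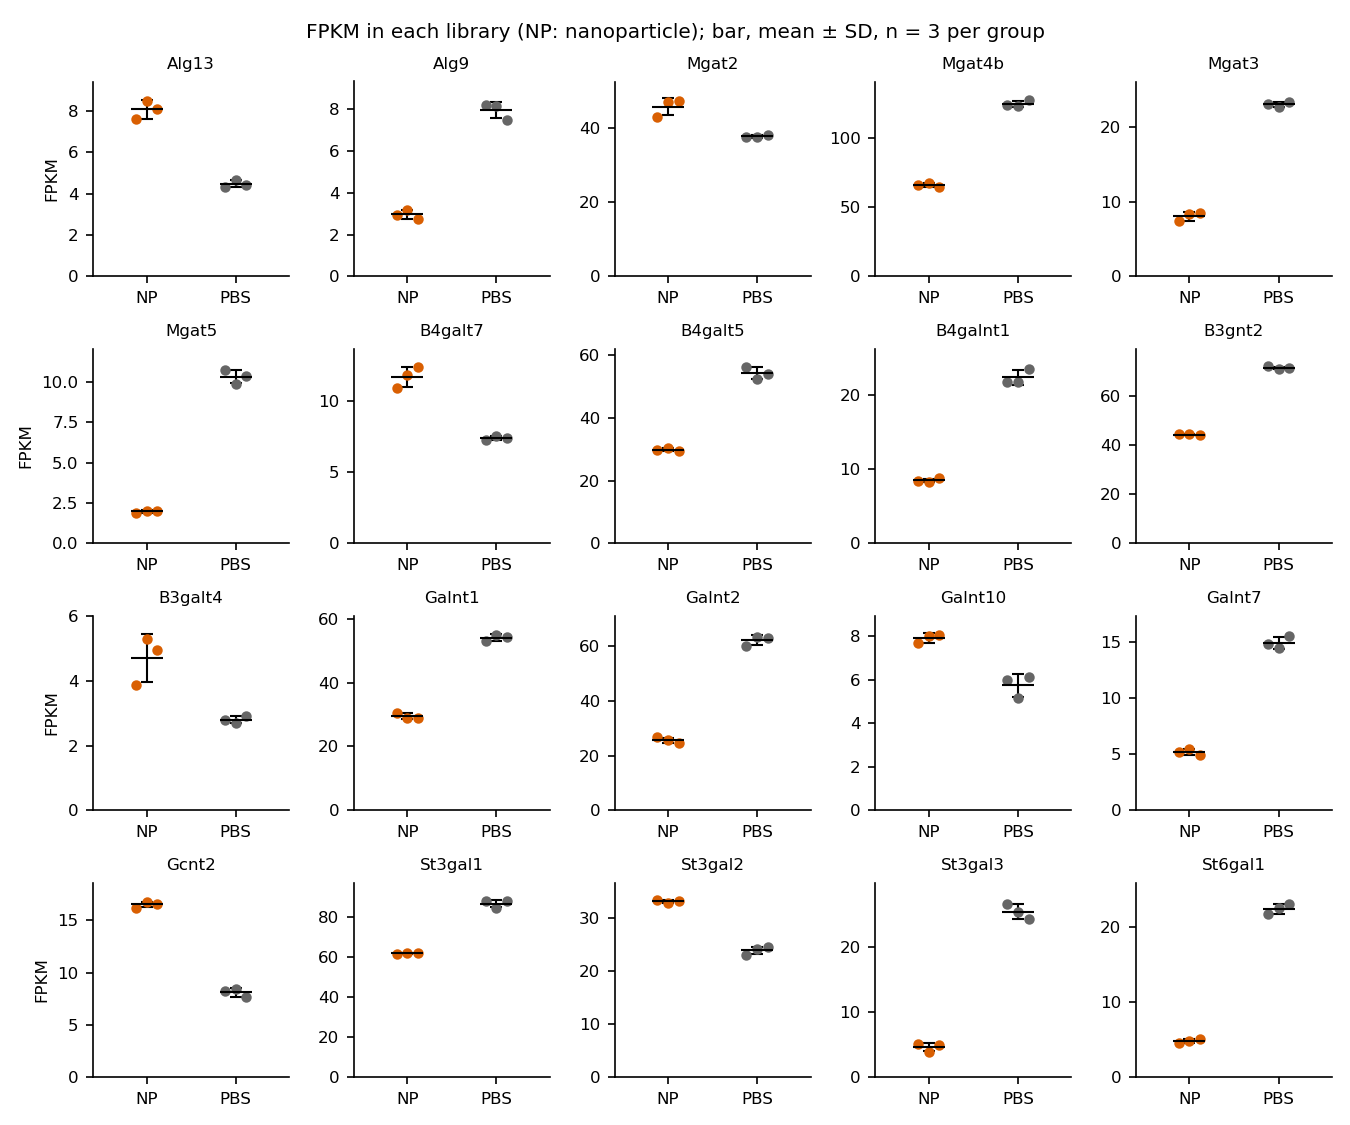
FPKM in each library for 20 transferase genes named in the text, nanoparticle (NP, orange) left of PBS (grey), with the mean and SD of the 3 libraries as bars and a y axis that starts at 0 in each panel. In every panel the nanoparticle and PBS libraries are apart; Mgat5 lies at 1.90 to 2.02 FPKM in nanoparticle libraries and 9.88 to 10.7 FPKM in PBS libraries, and Gcnt2 at 16.2 to 16.7 FPKM in nanoparticle libraries and 7.67 to 8.44 FPKM in PBS libraries.

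The B4galt family, which adds galactose, was mostly lower: of 7 genes 6 were tested, 5 fell and 1 rose (median log2 fold change -0.37). B4galt5, a lactosylceramide synthase and the most abundant of the family, had 29.8, 30.5 and 29.5 FPKM in nanoparticle libraries, against 56.3, 52.5 and 54.1 FPKM in PBS libraries. B4galt1, the main enzyme that adds galactose to N-glycan antennae, averaged 22.7 ± 0.629 FPKM after nanoparticles and 41.1 ± 0.849 FPKM after PBS (SD, n = 3 each). Both fell by nearly the same amount (log2 fold changes -0.84 and -0.83). B4galt2 (-0.42), B4galt3 (-0.32) and B4galt4 (-0.30), which also make lactosamine, fell less, and B4galt4 was near the threshold (limma adjusted p = 0.0465) and lost its call under 7 of the 12 alternatives (adjusted p 0.0504 to 0.157). B4galt2 shares 28.2% of its exonic length with Ccdc24 and B4galt3 14.5% with Ppox, which also fell (13.4 FPKM after nanoparticles and 18.5 FPKM after PBS).

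B4galt7 was the member of this family that rose. It adds the first galactose of the glycosaminoglycan linker and does not act on N-glycan antennae. It had 10.9, 11.8 and 12.3 FPKM in nanoparticle libraries, against 7.25, 7.52 and 7.39 FPKM in PBS libraries, without overlap (log2 fold change 0.59, SE 0.053, limma adjusted p = 3.13e-06). Its share of the summed B4galt FPKM was 13.2% after nanoparticles and 5.51% after PBS.

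Both tested B4galnt genes fell. B4galnt1, the GalNAc-transferase that makes the gangliosides GM2 and GD2, had 8.41, 8.36 and 8.80 FPKM in nanoparticle libraries, against 21.8, 21.8 and 23.6 FPKM in PBS libraries. The groups were well apart (log2 fold change -1.30, SE 0.046, limma adjusted p = 4.10e-09). B4galnt1 spans 7.11 kb, the shortest span among the 12 genes with a log2 fold change of -1 or less, and shares 20.7% of its exonic length with Slc26a10 on the opposite strand. B4galnt4, which adds GalNAc to GlcNAc-ended chains, averaged 3.86 ± 0.364 FPKM after nanoparticles and 4.91 ± 0.332 FPKM after PBS (SD, n = 3 each; log2 fold change -0.28).

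All 4 tested genes of the 9 in the B3gnt family fell, but for B3gnt9, tested only through its PBS libraries, the direction was set by the filter. B3gnt2, the main enzyme that extends polylactosamine, had 44.6, 44.4 and 44.1 FPKM in nanoparticle libraries, against 72.2, 71.2 and 71.4 FPKM in PBS libraries. Both groups were tight and did not overlap (log2 fold change -0.68, SE 0.026, limma adjusted p = 6.15e-09). The B3gnt2 exons share 58.6% of their length with Commd1b on the same strand, which was low (1.53 FPKM after nanoparticles and 1.18 FPKM after PBS), and with the span trend removed B3gnt2 passed as higher (0.071, adjusted p = 0.0246). B3gnt3, which extends core 1 O-glycans, averaged 21.4 ± 0.516 FPKM after nanoparticles and 34.1 ± 0.370 FPKM after PBS (SD, n = 3 each; log2 fold change -0.65). B3gntl1 fell by 0.40 and B3gnt9 by 0.30. B3gntl1 did not pass with the span trend removed, and B3gnt9 did not pass without nanoparticle library 2 or without PBS library 2 (limma adjusted p = 0.0738 and 0.0779). B3gnt9 shares 16.5% of its exonic length with Phaf1 on the opposite strand, which rose (13.6 FPKM after nanoparticles and 10.6 FPKM after PBS).

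The 2 tested B3galt genes rose. B3galt4, the synthase of ganglioside GM1, had 3.89, 5.28 and 4.96 FPKM in nanoparticle libraries, against 2.81, 2.69 and 2.92 FPKM in PBS libraries. Nanoparticle library 1 was the lowest of its group and still above all PBS libraries (log2 fold change 0.58, SE 0.093, limma adjusted p = 0.000230). B3galt6, which adds the second galactose of the glycosaminoglycan linker, averaged 2.29 ± 0.204 FPKM after nanoparticles and 1.76 ± 0.228 FPKM after PBS (SD, n = 3 each; log2 fold change 0.25, limma adjusted p = 0.0168). The B3galt6 call was lost without nanoparticle library 2 (adjusted p = 0.0603), without PBS library 1 (adjusted p = 0.0663) and after rescaling to TPM, and the value was -0.065 with the span trend removed. B3galnt2, which acts on the O-mannosyl glycan of alpha-dystroglycan, had 5.95, 4.33 and 4.55 FPKM in nanoparticle libraries, against 11.7, 12.8 and 13.8 FPKM in PBS libraries, and fell by 1.22 (SE 0.103, limma adjusted p = 3.83e-06).

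The Galnt family, which starts mucin-type O-glycans, was lower with 1 exception. Of 17 genes 9 were tested, 8 fell and 1 rose, with a median log2 fold change of -0.99. Galnt2, a broadly expressed initiating enzyme with the highest level over all 6 libraries, had 26.7, 25.6 and 24.6 FPKM in nanoparticle libraries, against 60.1, 63.4 and 63.1 FPKM in PBS libraries. Galnt1, the other broadly expressed initiator, had 30.6, 29.0 and 28.8 FPKM in nanoparticle libraries, against 52.9, 55.0 and 54.3 FPKM in PBS libraries. Both were separated between groups, by -1.25 (SE 0.038, limma adjusted p = 1.45e-09) for Galnt2 and by -0.85 (SE 0.034, limma adjusted p = 8.42e-09) for Galnt1. The ratio of Galnt1 to Galnt2 was 1.15, 1.14 and 1.17 in nanoparticle libraries, against 0.881, 0.868 and 0.860 in PBS libraries, so that Galnt1 ranked first after nanoparticles and Galnt2 first after PBS.

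Galnt7, which prefers peptides that already carry a GalNAc, had the largest decrease of the family on the log2(FPKM + 1) scale. It had 5.20, 5.45 and 4.96 FPKM in nanoparticle libraries, against 14.8, 14.5 and 15.6 FPKM in PBS libraries (log2 fold change -1.36, SE 0.051, limma adjusted p = 5.53e-09). Galnt11 (-1.30), Galnt12 (-1.28) and Galnt15 (-0.99) fell to a similar extent (by the ratio of mean FPKM Galnt12, Galnt11 and Galnt7 lay at 0.331, 0.347 and 0.348), and Galnt3, whose known substrate is the phosphate hormone FGF23, and Galnt4 fell less (-0.35 and -0.36). Galnt10, another enzyme that follows up on glycosylated peptides, was the exception. It had 7.67, 8.02 and 8.06 FPKM in nanoparticle libraries, against 5.97, 5.14 and 6.10 FPKM in PBS libraries. The groups did not overlap, and Galnt10 rose by 0.41 (SE 0.065, limma adjusted p = 0.000218). Its share of the summed Galnt FPKM was 8.34% after nanoparticles and 3.09% after PBS.

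The promoters of Galnt11 and B4galt3 are shown because they hold the same cAMP response element, TGACGTCA in capitals, as Alg13, while both genes fell and Alg13 rose. The first base of the element is at -29 in Galnt11 (chr5:25222622-25222921, plus strand) and at -8 in B4galt3 (chr1:171270078-171270377, plus strand), in RefSeq windows of GRCm38.p6.
Galnt11: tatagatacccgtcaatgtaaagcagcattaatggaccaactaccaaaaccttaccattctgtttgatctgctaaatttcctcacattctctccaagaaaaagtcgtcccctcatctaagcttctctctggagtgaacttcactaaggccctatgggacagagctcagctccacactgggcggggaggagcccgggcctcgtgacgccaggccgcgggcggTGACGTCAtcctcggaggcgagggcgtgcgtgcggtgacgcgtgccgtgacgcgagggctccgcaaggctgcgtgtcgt
B4galt3: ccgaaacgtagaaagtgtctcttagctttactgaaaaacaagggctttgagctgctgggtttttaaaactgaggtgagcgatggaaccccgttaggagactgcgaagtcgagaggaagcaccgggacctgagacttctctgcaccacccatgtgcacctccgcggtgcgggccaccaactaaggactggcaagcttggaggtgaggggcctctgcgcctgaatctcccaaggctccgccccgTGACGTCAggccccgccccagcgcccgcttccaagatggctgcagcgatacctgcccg
Among the tested transferases this element thus stood in 1 of 13 promoters of genes that rose and in 2 of 29 promoters of genes that fell. The AP-1 element TGANTCA was found in 3 of the 49 tested promoters (6.12%), those of Alg3, Galnt15 and St6gal1, beside 7.81% of all promoters. The GC box GGGCGG was found in 30 of the 49 (61.2%), beside 35.7% of all promoters, in 6 of the 13 promoters of genes that rose and in 21 of the 29 of genes that fell. These 13 promoters come from 9 genes and the 29 from 25. All promoters include those of untested genes, and no share was taken over all tested genes or over all that rose or fell. Whether these GC box shares are particular to the transferases was thus not tested. Among the untested transferases the GC box was found in 22 of 43 promoters (51.2%).

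Of the 5 Gcnt genes, which add GlcNAc branches, 2 were tested. Gcnt2, which makes the I branch of polylactosamine, had 16.2, 16.7 and 16.6 FPKM in nanoparticle libraries, against 8.26, 8.44 and 7.67 FPKM in PBS libraries. Its libraries were tight in both groups, and its log2 fold change of 0.94 was the largest rise of any tested transferase (SE 0.047, limma adjusted p = 4.01e-08). Gcnt2 spans 101 kb. Gcnt1, which makes core 2 O-glycans, had 1.63 ± 0.102 FPKM after nanoparticles and 1.85 ± 0.314 FPKM after PBS (SD, n = 3 each) and did not pass (log2 fold change -0.11, limma adjusted p = 0.257).

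The St3gal family, which links sialic acid to galactose at the ends of chains, had all 6 genes tested: 5 fell and 1 rose (median log2 fold change -0.76). St3gal1, which caps core 1 O-glycans and is the most abundant, had 61.4, 61.9 and 62.2 FPKM in nanoparticle libraries, against 88.0, 84.6 and 87.8 FPKM in PBS libraries. The groups did not overlap, and St3gal1 fell by 0.48 (SE 0.027, limma adjusted p = 9.63e-08), but with the span trend removed it passed as higher (0.11, adjusted p = 0.00566). St3gal2, which also sialylates core 1 chains and gangliosides, had 33.3, 32.6 and 33.1 FPKM in nanoparticle libraries, against 23.1, 24.0 and 24.5 FPKM in PBS libraries. All nanoparticle libraries were higher, and St3gal2 rose by 0.45 (SE 0.034, limma adjusted p = 8.85e-07).

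The St3gal enzymes that act on lactosamine and lactosylceramide fell. St3gal3, on chromosome 4 with a span of 203 kb, sialylates N-glycan antennae. It had 5.13, 3.94 and 4.91 FPKM in nanoparticle libraries, against 26.5, 25.4 and 24.3 FPKM in PBS libraries. No library came near the other group, and its decrease was the largest of the tested transferases on the log2(FPKM + 1) scale (log2 fold change -2.23, SE 0.079, limma adjusted p = 6.42e-09). St3gal4, which acts on the same chains and had the second-highest level, averaged 50.7 ± 1.92 FPKM after nanoparticles and 75.0 ± 2.59 FPKM after PBS (SD, n = 3 each; log2 fold change -0.56), and did not pass with the span trend removed. St3gal6 averaged 2.56 ± 0.140 FPKM after nanoparticles and 5.99 ± 0.900 FPKM after PBS (log2 fold change -0.96), and shares 26.0% of its exonic length with Dcbld2 on the opposite strand, which also fell (16.1 FPKM after nanoparticles and 30.7 FPKM after PBS). St3gal5, the synthase of ganglioside GM3, averaged 1.12 ± 0.175 FPKM after nanoparticles and 6.93 ± 0.782 FPKM after PBS (SD, n = 3 each; log2 fold change -1.90). By the ratio of mean FPKM, St3gal5 (0.162) was lower than St3gal3 (0.184). The ratio of St3gal2 to St3gal3 was 6.49, 8.28 and 6.73 in nanoparticle libraries, against 0.870, 0.946 and 1.01 in PBS libraries.

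The promoter of St3gal3, the gene with the largest decrease on the log2(FPKM + 1) scale, is shown for its 4 CCAAT boxes on the reverse strand, read here as ATTGG in capitals (RefSeq, GRCm38.p6, chr4:118134897-118135196, minus strand).
St3gal3: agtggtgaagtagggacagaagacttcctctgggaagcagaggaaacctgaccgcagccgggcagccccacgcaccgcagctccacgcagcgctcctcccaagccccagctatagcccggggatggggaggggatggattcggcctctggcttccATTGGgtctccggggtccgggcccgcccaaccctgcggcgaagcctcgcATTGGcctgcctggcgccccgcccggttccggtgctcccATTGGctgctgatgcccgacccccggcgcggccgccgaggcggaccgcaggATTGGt
Their first bases as printed are at -95, -46, -7 and 45 from the start. A CCAAT box on either strand was found in 20 of the 49 promoters of tested transferases (40.8%) and in 37.4% of all promoters.

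St6gal1, the enzyme that adds the sialic acid read by Siglec-2 to N-glycans, also fell strongly. It had 4.53, 4.77 and 5.06 FPKM in nanoparticle libraries, against 21.7, 22.4 and 23.0 FPKM in PBS libraries. The groups were far apart, with a log2 fold change of -2.01 (SE 0.050, limma adjusted p = 4.20e-10). Relative to the summed St3gal family, the level of St6gal1 was 0.0292, 0.0317 and 0.0324 in nanoparticle libraries, against 0.0948, 0.103 and 0.102 in PBS libraries. The fall of St6gal1 was thus larger than that of the St3gal sum.

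The St6galnac genes, which add sialic acid to GalNAc of O-glycans or gangliosides, had small changes. Of 6 genes 3 were tested, 2 fell and 1 did not pass. St6galnac6, which acts on gangliosides, had 13.9, 14.9 and 14.0 FPKM in nanoparticle libraries, against 20.3, 19.8 and 19.2 FPKM in PBS libraries (log2 fold change -0.44, SE 0.043, limma adjusted p = 5.70e-06). St6galnac2 had the same log2 fold change of -0.44, at 2.88 ± 0.204 FPKM after nanoparticles and 4.26 ± 0.359 FPKM after PBS (SD, n = 3 each). St6galnac4 did not pass (0.10, limma adjusted p = 0.0607), although its libraries did not overlap (8.09 ± 0.245 FPKM after nanoparticles and 7.46 ± 0.044 FPKM after PBS); median-of-ratios scaling made it pass as higher (0.16), and without the span trend it passed as lower (-0.11, adjusted p = 0.0442).

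The 40 transferases that were not tested were under 1 FPKM in every library, the highest being B3gnt7 with 0.988 FPKM in 1 PBS library. No gene of the St8sia family, which makes polysialic acid and disialyl gangliosides, was tested. Its 6 genes together summed to 0.381, 0.364 and 0.379 FPKM in nanoparticle libraries, against 0.00678, 0 and 0 FPKM in PBS libraries. Very low values seen after nanoparticles and not after PBS were common among the untested transferases. Of the 40, 23 were listed at 0 in all PBS libraries, and 18 of these were above 0 in every nanoparticle library, which is 45% of the 40, beside 23.4% of all 11242 untested genes. The largest of these values was 0.425 FPKM, for B3galnt1, the globoside synthase. The number of all genes above 0 was also larger in every nanoparticle library, and the part of that difference in these low values was not tested. In 29 of the 40 every nanoparticle library lay above every PBS library, a count that was not taken over all untested genes. Mgat4a, a branching enzyme related to Mgat4b, was the 1 untested transferase with every nanoparticle library below every PBS library, at 0.626 ± 0.025 FPKM after nanoparticles and 0.726 ± 0.019 FPKM after PBS (SD, n = 3 each).

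Summed over all members, 10 families had a lower level after nanoparticles. The St3gal family summed to 154 ± 2.86 FPKM after nanoparticles and 224 ± 5.33 FPKM after PBS, and the Mgat family to 139 ± 3.53 FPKM after nanoparticles and 212 ± 3.07 FPKM after PBS (SD, n = 3 each). The Galnt family summed to 94.9 ± 2.16 FPKM after nanoparticles and 186 ± 2.02 FPKM after PBS, and the B4galt family to 88.1 ± 0.578 FPKM after nanoparticles and 134 ± 1.81 FPKM after PBS. The ratio of the sums (nanoparticle over PBS) was 0.219 for St6gal, 0.415 for B3galnt, 0.468 for B4galnt, 0.511 for Galnt, 0.629 for B3gnt, 0.658 for B4galt, 0.659 for Mgat, 0.687 for St3gal, 0.807 for St6galnac and 0.930 for Alg. The sum of the precursor-building Alg family thus moved least, although 3 of its genes rose and 5 fell. The St6gal and B3galnt sums were almost all from St6gal1 and B3galnt2. The B3galt and Gcnt sums were higher, with ratios of 1.55 and 1.83. The St8sia sum was higher too, but came from untested genes near 0. Gcnt2 made up 89.9% of the Gcnt sum after nanoparticles and 80.9% after PBS, and B3galt4 made up 60.3% of the B3galt sum after nanoparticles and 56.1% after PBS. No test was run on the sums.

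**Figure D3:**
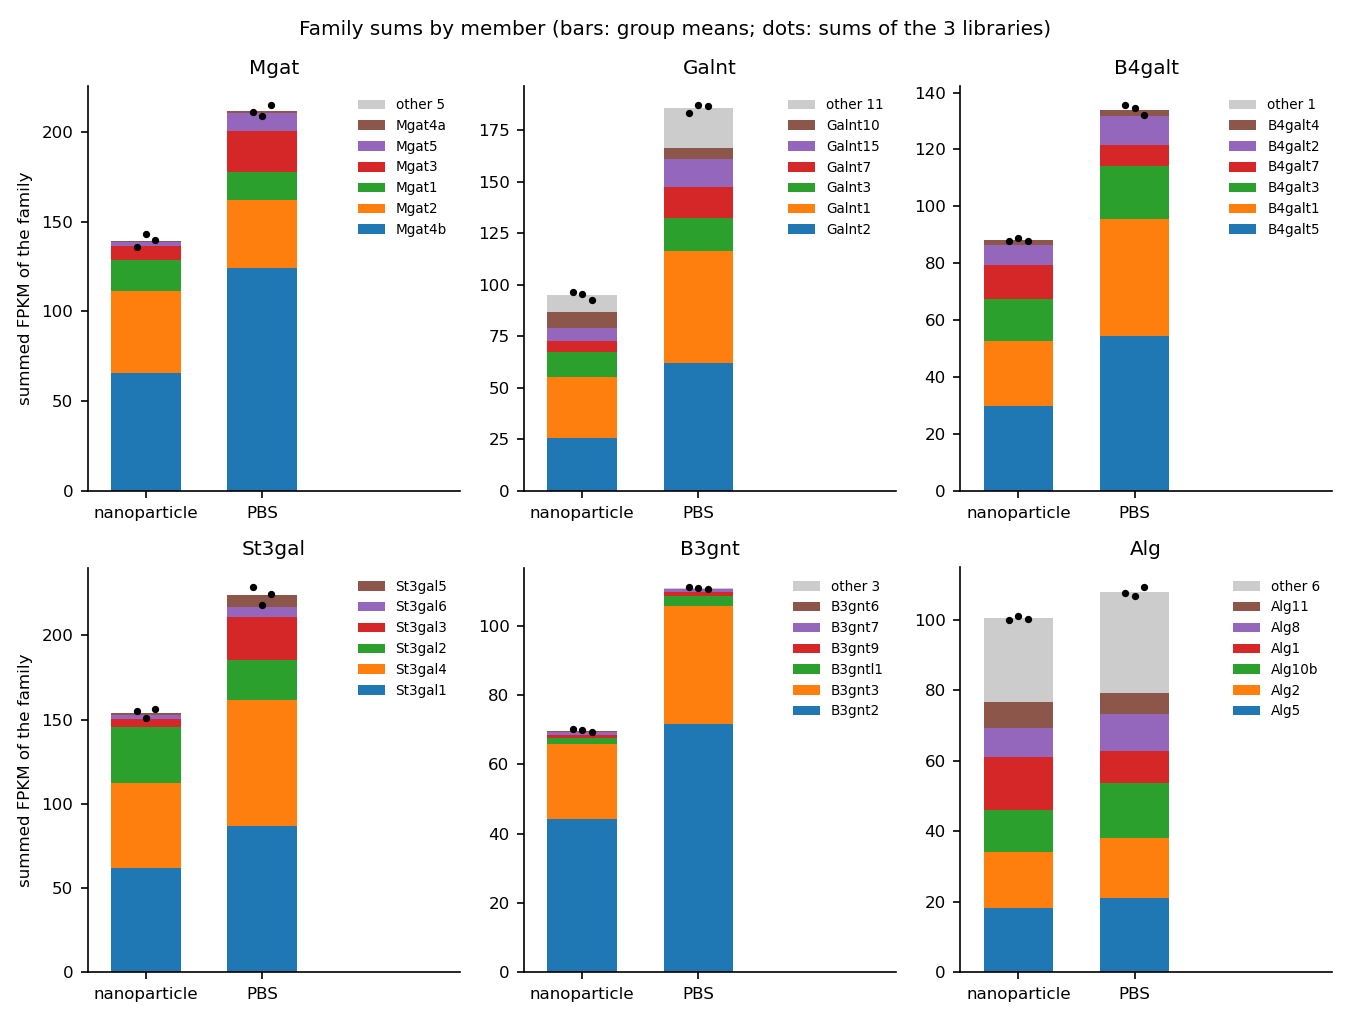
Summed FPKM of 6 transferase families, with nanoparticle left of PBS; bars are group means stacked by member, and black dots are the sums of the 3 libraries. The bars start at 0; the nanoparticle bar is lower in each panel, least in Alg (100 FPKM after nanoparticles, 108 FPKM after PBS) and most in Galnt (94.9 FPKM after nanoparticles, 186 FPKM after PBS), and the St3gal2 and Mgat2 segments are larger in the nanoparticle bars.

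Long genes were mostly lower in these libraries, and the transferases are long: the median genomic span, from gene start to gene end, was 33.2 kb over the tested transferases and 23.2 kb over all tested genes. Across the 53 genes, log2 fold change and log10 span were correlated with Pearson's r = -0.490 and Spearman's rho = -0.461, beside -0.478 and -0.492 across 10836 tested genes with a span. These points share their 6 libraries and are no replicates. Among 19 transferases of 50 kb or more, 14 fell, 4 rose and 1 did not pass, with a median of -0.84; of all tested genes of that span 80.3% fell and 11.0% rose, with a median of -0.75. The 4 long genes that rose were Alg13, Galnt10, Gcnt2 and St3gal2. Among the 13 transferases of 20 to 50 kb, 12 fell, none rose and 1, Gcnt1, did not pass, with a median of -0.87, beside 44.5% lower, 39.3% higher and a median of -0.05 for all tested genes of that span.

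Short transferases were split. Under 20 kb, 7 rose, 10 fell and 4 did not pass, with a median of -0.07, while 57.9% of all tested genes of that span rose, 27.4% fell and their median was 0.29. With the trend of each library on span and exonic length removed, 10 transferases rose and 34 fell. In that setting no Mgat gene rose, 1 B3gnt gene rose and 2 fell, and 2 St3gal genes rose and 3 fell.

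**Figure D4:**
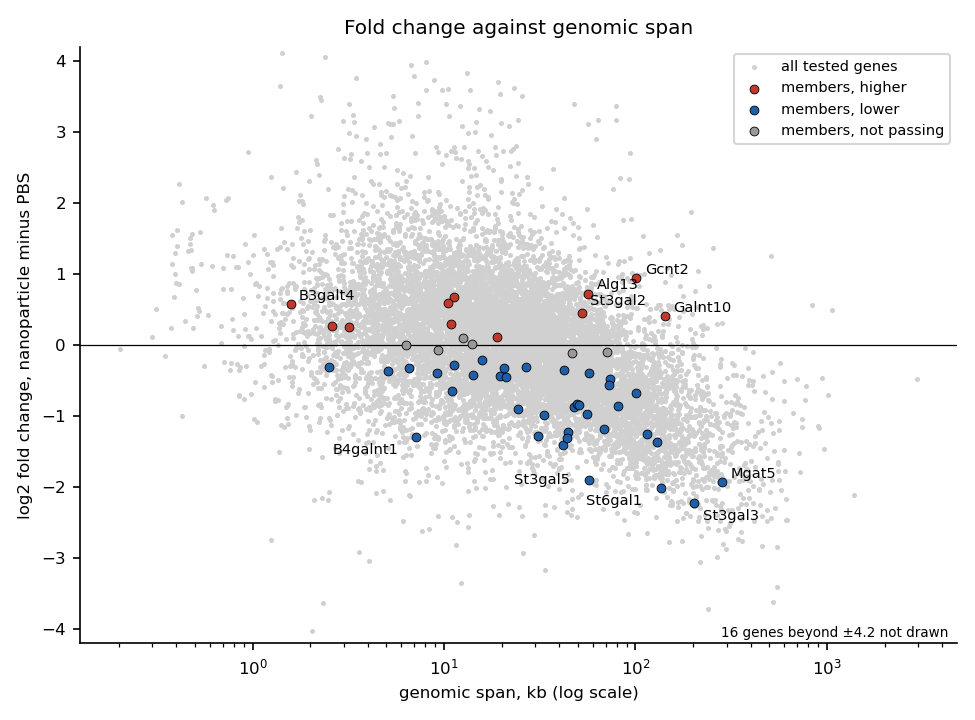
Log2 fold change (nanoparticle minus PBS) against genomic span in kb on a log axis, for all tested genes in grey and the 53 transferases in colour; 16 genes beyond ±4.2 are not drawn. Transferases of 50 kb and over lie mostly below 0, with Mgat5, St3gal3 and St6gal1 lowest, while Gcnt2, Alg13, St3gal2 and Galnt10 lie above it.

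The genes that feed and frame these transferases were read from 9 lists, to be set beside the 46% lower and 40.5% higher among all tested genes. Of 23 genes for the lipid-linked precursor and the oligosaccharyltransferase, which moves it onto proteins, 10 rose, 9 fell and 4 did not pass (median log2 fold change 0.06, beside -0.06 for all tested genes). The small subunits Dpm2, of dolichyl-phosphate mannose synthase, and Ost4, of the oligosaccharyltransferase, rose, to 44.5 FPKM after nanoparticles, against 16.0 FPKM after PBS, for Dpm2, and to 78.4 FPKM after nanoparticles, against 30.8 FPKM after PBS, for Ost4. Tusc3, an oxidoreductase subunit, fell by 1.71 (13.5 FPKM after nanoparticles and 46.7 FPKM after PBS). Of 17 tested trimming enzymes, which remove glucose and mannose before branching, 11 fell, 5 rose and 1 did not pass (median -0.67). Man2a1, a Golgi mannosidase that acts between Mgat1 and Mgat2, fell to 4.67 FPKM after nanoparticles, against 26.0 FPKM after PBS (log2 fold change -2.25). Its relative Man2a2 did not pass (16.5 FPKM after nanoparticles and 17.1 FPKM after PBS, log2 fold change -0.04). Man1a2, which trims before Mgat1, and Manea, an endomannosidase, fell by 1.74 and 1.44. Of 5 tested fucosyltransferases 4 fell and 1 rose (median -0.39), with Fut8, the core fucosyltransferase, lower by 3.72 on the log2 scale, Fut11 by 1.22 and Pofut1, which fucosylates Notch, by 0.39.

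The donor pathways were mixed, beside 46% lower and 40.5% higher among all tested genes. Of 24 genes for nucleotide sugars and their transport, 13 rose, 9 fell and 2 did not pass (median 0.17); after rescaling to TPM 8 rose and 11 fell, and with the span trend removed 9 rose and 12 fell. Slc35b1, a transporter of the endoplasmic reticulum, rose by 1.88, while Gmds, the first enzyme of GDP-fucose synthesis, fell by 1.90 (2.11 FPKM after nanoparticles and 10.6 FPKM after PBS). Of 10 tested genes of sialic acid metabolism 5 fell, 3 rose and 2 did not pass (median -0.27). The share that fell was near the 46% of all tested genes. Gne, the rate-limiting enzyme of sialic acid synthesis, had 2.26 FPKM after nanoparticles and 5.76 FPKM after PBS (log2 fold change -1.05), and Siae, a sialic acid esterase, fell by 1.09, while Nans, the sialic acid synthase, rose to 49.6 FPKM after nanoparticles, against 28.3 FPKM after PBS.

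Other sugar-adding enzymes fell more often than they rose, beside 46% lower and 40.5% higher among all tested genes. Of 23 tested genes for O-mannose, O-fucose, O-GlcNAc and glycosaminoglycan linkers 13 fell, 4 rose and 6 did not pass (median -0.45), with B4gat1, which primes the matriglycan of alpha-dystroglycan, lower by 2.15, and Ogt, the O-GlcNAc transferase of the cytosol and nucleus, by 1.81. Of 13 tested glycolipid genes 9 fell, 3 rose and 1 did not pass (median -0.24), with the ceramide synthases Cers6 and Cers5 lower by 1.91 and 0.63 and the lysosomal galactosidase Glb1 by 0.87. Of 20 tested Golgi factors that hold transferases in place or set their ions, 9 rose, 9 fell and 2 did not pass (median -0.05): the tether subunit Cog5 and the protease Sppl3, which cleaves transferases from the Golgi membrane, fell by 1.52 and 1.40, and the proton pump subunit Atp6v0a2 rose by 1.02. For this list rescaling to TPM gave 6 higher and 11 lower, and removal of the span trend 10 higher and 5 lower.

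Among the proteins that bind or carry the finished chains, more rose than fell, beside 40.5% higher and 46% lower among all tested genes. Of 10 tested galectins and mucin-like proteins 7 rose, 1 fell and 2 did not pass, with a median of 0.55. Muc1, a heavily O-glycosylated membrane mucin, rose to 19.7 FPKM after nanoparticles, against 1.46 FPKM after PBS (log2 fold change 3.07), and the galectin genes Lgals9 and Lgals1 rose by 1.41 and 0.70. The lists differ in their genes' spans and were compared by counts alone.

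**Figure D5:**
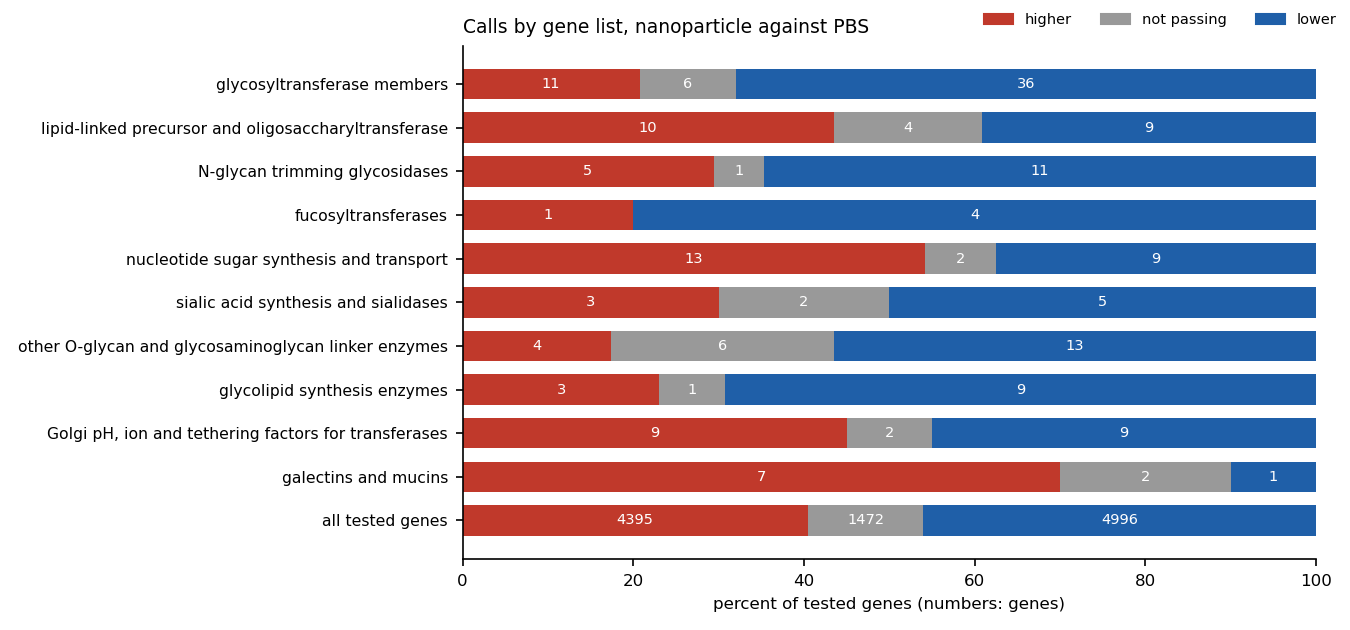
Percent of tested genes that rose (red), did not pass (grey) and fell (blue) after nanoparticles against PBS, for the transferases, the 9 related lists and all tested genes, with the number of genes printed in each segment. The transferase bar (11 higher, 36 lower) leans to lower. So do the bars of trimming (5 higher, 11 lower), fucosyltransferase (1 and 4), other O-glycan and linker (4 and 13) and glycolipid genes (3 and 9). In the sialic acid bar (3 higher and 5 lower of 10 tested) the lower share is near the 46% of all tested genes. The galectin and mucin bar (7 higher, 1 lower) and the nucleotide sugar bar (13 and 9) lean to higher, and all tested genes lie between (4395 higher, 4996 lower).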

How the data were processed

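Values were the authors' deposited FPKM table of 6 libraries; its header names no unit, which was inferred from the values. The submitters' processing notes name STAR, featureCounts and the builds GRCm38 and mm10, with no versions; the strand setting is not stated there. The smallest values showed no step of 1 read, so depth is unknown and no count test was possible: the test planned for a table of FPKM, limma, was used. Genes with at least 1 FPKM in 3 of 6 libraries were fitted on log2(FPKM + 1) with limma 3.58.1 in R 4.3.3 (trend and robust settings), nanoparticle minus PBS, with Benjamini-Hochberg adjustment over 10863 genes. The 701 features without a gene identifier were left out. The fit was tested on simulated data. Positions, spans, lengths and exon overlaps came from GENCODE M21 (GRCm38), and promoters from RefSeq. The members and gene lists were chosen with earlier results of these data known. Values per library were given for the most abundant member of each family and its largest called rise and fall; Galnt1 and Mgat3, the ratios between members and the promoters shown were chosen after their values or motif matches were seen. The alternatives were no filter on low values, a pseudocount of 0.1, TPM and median-of-ratios scaling, a replicate block, removal of the trend on span and length, each library left out in turn and, added after the data were seen, members that share over 10% of exonic length with another gene left out. No set test was run. Of the list genes chosen by size of change, 2 are not reported here.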

Additional observations from a re-analysis of the deposited data

How the results depend on the processing

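Over 12 alternatives the 53 tested transferases gave 636 values. Of these, 606 kept their call (higher, lower or not passing), 17 no longer passed and 5 newly passed in the same direction. The other 8 changed sign and passed in the main fit, the alternative or both. Changes of sign in values that passed in neither fit were not counted. Without a filter on low values, 37 transferases and 8445 of all genes were higher (11 and 4395 with it), since genes under 1 FPKM, mostly at or near 0 in PBS libraries, then entered the test. The 8 counted changes of sign were, with the trend on span and length removed, Alg14 (0.39), Mgat1 (-0.020), Mgat2 (-0.056), B3gnt2 (0.071), B3galt6 (-0.065), St3gal1 (0.11) and St6galnac4 (-0.11), and, after rescaling to TPM, Mgat1 (-0.029). Rescaling to TPM shifted the median log2 fold change of all genes by -0.15. The cause of these changes was not tested. TPM gave 9 transferases higher and 38 lower, median-of-ratios scaling 12 and 35, and leaving out each library 9 to 11 and 34 to 36. Leaving out members that share exons with another gene left 10 higher and 29 lower. After rescaling to TPM the genes called higher numbered 0 fucosyltransferases (1 as deposited), 8 nucleotide sugar genes (13), 2 other O-glycan and linker genes (4) and 1 glycolipid gene (3), and the galectins and mucins called lower 2 (1); with the span trend removed 5 Golgi factors were lower (9). Without a filter the fucosyltransferases called higher numbered 3, the sialic acid genes 5, the glycolipid genes 5 and the galectins and mucins 13. The replicate numbers did not pair the samples (correlations of same-numbered deviations -0.014, -0.043 and 0.041), and a replicate block gave 11 higher and 35 lower, losing B4galt4. Unknown depth limits what the zeros of low genes can show.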
